A study of Homo sapiens with 5 samples.

Results

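Genes that sense foreign nucleic acid or act in the interferon response were followed in ribosome footprints of HAP1 cells with and without METTL18. The list held 9 symbols. A row of the count table was found for 7 of them among 14084 rows, namely IFITM3, IFIH1, DDX58, IFI16, STAT2, IRF9 and ADAR, each with 1 row. IFITM1 and IFITM2 were not analysed here. The genes were selected on their difference between the knockout and the wild type in these same libraries, so that difference is described for them, and calls from the fit over all genes support nothing about them. HAP1 is an established near-haploid human line derived from the leukaemia line KBM-7. The groups were wild-type HAP1 (n = 2) and HAP1 with a METTL18 knockout (n = 3), all called haploid in the labels, which name no treatment, interferon or virus. METTL18 methylates a histidine of the ribosomal protein RPL3. The labels do not say whether the knockout is 1 clone or whether libraries came from separate cultures, so any p-value measures the spread between these libraries only, which may be technical. Chi-square per degree of freedom, near 1 where only counting error is present, was 1.14 between the wild-type libraries. Between pairs of knockout libraries it was 2.73 to 3.48. The origin of this spread was not tested.

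The interferon system works in 2 steps. Sensors in the cytosol recognise viral or misplaced nucleic acid: DDX58 (also called RIG-I) and IFIH1 (MDA5) bind RNA, IFI16 binds DNA, and their adaptors switch on the transcription factors that induce interferon genes. Secreted interferon then binds receptors whose kinases activate STAT proteins, and STAT2 joins IRF9 in a complex that binds a short DNA element in interferon-stimulated genes. IFITM proteins are products of such genes and sit in membranes, where they hinder fusion of viruses. ADAR edits adenosine to inosine in double-stranded RNA and so keeps the cell's own RNA from being taken for viral RNA.

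Totals were 5302160 and 4887380 counts for wild-type libraries and ranged from 16339574 to 17629199 for the knockout, so depth, on average 3.33-fold greater in the knockout, cannot be told apart from genotype. Levels are given as CPM, counts scaled to library size with TMM factors, as mean ± SD. A count reflects both the amount of an mRNA and the ribosomes on each copy, and fewer cells making an mRNA cannot be told apart from less of it per cell. METTL18 itself averaged 5.70 ± 0.211 CPM in wild-type cells against 2.10 ± 0.117 CPM in the knockout (log2 fold change -1.44, SE 0.25). HAP1 cells have no agreed set of defining markers. Of 8 listed leukocyte markers 4 had a row: CORO1A was counted in every library, CD33 in none, and CD34 and LAPTM5 held at most 4 counts in a library.

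How far footprints can be assigned to each gene differed among the 7. Footprints were selected at 28 to 32 bases, so each coding sequence was divided into all windows of 28 bases and each window was looked for in the transcripts of every other gene of GENCODE release 29. For IFIH1, DDX58, STAT2 and ADAR, 100% of the windows occurred in no other gene, and for IFI16 it was 98.6%. For IFITM3 (transcript ENST00000399808, hg38 chromosome 11, 319669 to 321050, minus strand, 2 exons) it was 26.4%, 99 of 375 windows. IFITM3 shared 142 windows with IFITM1 and 112 with IFITM2, its neighbours and near copies. It also shared 86 with AC006970.1, 76 with AC023157.1, 64 with AC116049.1 and 54 with IFITM9P, and fewer with further genes. The longest shared stretches of coding sequence are printed to show where an IFITM3 footprint cannot be told from that of a relative. They end at the same base, 357 of the 402 bases of the IFITM3 coding sequence.
IFITM3 bases 217 to 357, shared with IFITM1: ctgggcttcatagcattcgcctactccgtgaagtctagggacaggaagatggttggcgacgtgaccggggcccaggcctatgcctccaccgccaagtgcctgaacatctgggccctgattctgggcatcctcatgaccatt
IFITM3 bases 238 to 357, shared with IFITM2: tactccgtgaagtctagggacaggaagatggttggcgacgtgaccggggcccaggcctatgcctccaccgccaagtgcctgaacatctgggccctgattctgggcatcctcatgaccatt
For IRF9 (ENST00000396864, chromosome 14, 24161053 to 24166565, plus strand, 9 exons) none of the 1155 windows was unique, since the overlapping protein-coding gene AL136295.5, on the same strand, holds the whole coding sequence. The sources used here do not give how reads matching more than 1 gene, or reads of the opposite strand, were counted. IFITM3 also overlaps AC136475.1, which is antisense to it.

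**Figure D1:**
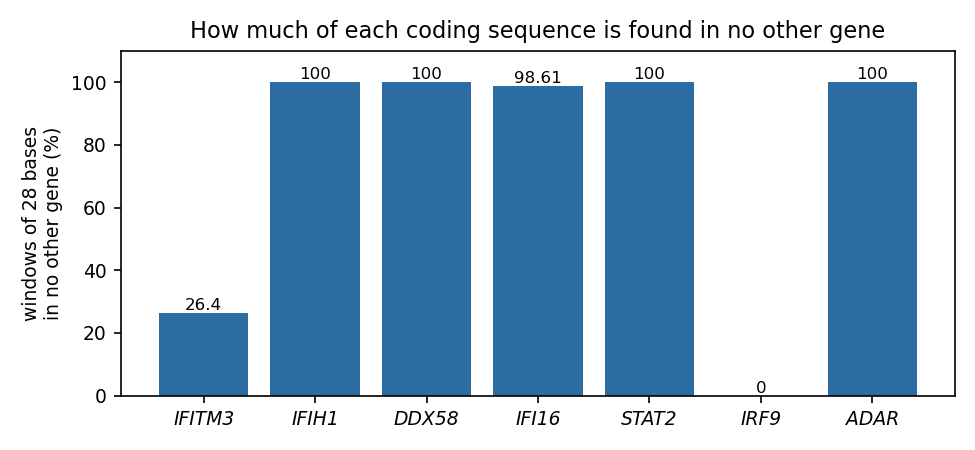
Share of the windows of 28 bases of each coding sequence (y axis, %) that occur in no transcript of another gene, for each of the 7 genes (x axis). IFITM3 (26.4%) and IRF9 (0%) stand below the other bars, which lie between 98.6% and 100%.

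Promoters of all 7 genes were found in RefSeq (GRCh38.p14, with DDX58 under its current symbol RIGI), 10 promoters of 250 bases before and 50 after a start. The core of the element bound by the STAT and IRF complex has a pair of GAAA blocks with 2 bases of any kind between them. The same pair with 1 base between was searched as well, on both strands, with overlapping matches allowed. The 2-base form occurred in 3.57% and the 1-base form in 3.12% of 35116 promoters. The 2-base form was found in IFITM3 and IFIH1, and the 1-base form in DDX58 and IFI16, 4 of the 7 genes in all. STAT2, IRF9 and ADAR had neither in these windows. The start of the counted ADAR transcript, base 154608186 of chromosome 1, lay outside every ADAR window searched. The nearest window ran from 154608748 to 154609047, so the sequence at that start was not searched. The stretches nearest to the start are printed 5′ to 3′ on the strand of the gene with the match in capitals, because they stand before genes whose levels differed in opposite directions.
IFITM3, chr11:320876-320905, match at bases -35 to -26 from the start: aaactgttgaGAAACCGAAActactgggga
IFIH1, chr2:162318686-162318715, match at bases -21 to -12 from the start: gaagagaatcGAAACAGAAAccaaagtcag
IFI16, chr1:159009843-159009871, match at bases -54 to -46 from the start: ctgactaacaGAAACGAAAgctaaaaaca
DDX58, chr9:32526381-32526409, match at bases -203 to -195 from the start: ggtgcggaggGAAACGAAActagcccgag
IFITM3 had 1 further match of the 2-base form and IFIH1 had 2, on the opposite strand. A match of letters is a description and not a shown binding site.

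Among the effectors, IFITM3, which blocks virus entry from endosomes, was higher in the knockout. Its row held 26 and 33 wild-type counts, against 616, 629 and 722 knockout counts. Scaled, these were 4.38 and 6.03 CPM against 40.7, 38.6 and 45.8 CPM. Every knockout library lay above both wild-type libraries, with means of 5.21 ± 1.17 CPM (SD, n = 2) and 41.7 ± 3.69 CPM (SD, n = 3). This is 8.04-fold higher, with a log2 fold change of 3.01 (SE 0.15), and 97.6% of all tested genes had a lower value. That SE is derived from the test statistic. With wild type replicate 1 or 2 left out the value was 2.79 or 3.24, a shift larger than the SE. Because of the shared windows given above, part of these counts may belong to IFITM1, IFITM2 or the other genes that share them, which was not tested.

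The RNA sensors differed from each other. IFIH1, which binds long double-stranded RNA (ENST00000263642, chromosome 2, 162267079 to 162318703, minus strand, 16 exons), held 50 and 48 wild-type counts, and 11, 23 and 18 in the knockout despite its greater depth. That is 8.42 and 8.78 CPM against 0.726, 1.41 and 1.14 CPM. The groups did not overlap, and the means of 8.60 ± 0.256 and 1.09 ± 0.346 CPM gave a log2 fold change of -2.95 (SE 0.26), 7.74-fold lower in the knockout. Knockout counts of this size leave wide counting error around each library. DDX58, which binds short RNA with a triphosphate end (ENST00000379883, chromosome 9, 32455705 to 32526324, minus strand, 18 exons), had wild-type values of 11.5 and 11.7 CPM, against 14.6, 13.3 and 14.8 CPM in the knockout. Its knockout values lay slightly above the wild-type ones, with a log2 fold change of 0.30 (SE 0.14), and 0.03 when libraries were scaled by total counts.

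The DNA sensor IFI16 showed the widest difference of the 7. IFI16 is a PYHIN protein that binds double-stranded DNA, mostly in the nucleus (ENST00000368131, chromosome 1, 159009892 to 159055155, plus strand, 11 exons). Its row held 243 and 248 wild-type counts, but 20, 6 and 2 knockout counts, which are 40.9 and 45.4 CPM against 1.32, 0.369 and 0.127 CPM. The knockout libraries lay far below the wild type and also differed among themselves, with replicate 1 the highest. The means of 43.1 ± 3.15 and 0.605 ± 0.631 CPM gave a log2 fold change of -6.16 (SE 0.27), 71.3-fold lower, and -7.37 without METTL18 knockout replicate 1. That shift is larger than the SE, which thus understates the spread between the knockout libraries. The other 34 genes with at least 10 CPM in the wild type and an at least 32-fold lower level in the knockout, a set chosen after seeing the data, summed to 24.3, 22.3 and 21.0 CPM in knockout replicates 1, 2 and 3. Gene by gene, replicate 1 was the highest knockout library in 17 of them, replicate 2 in 4 and replicate 3 in 9, and 4 had no knockout count. At such low levels 1 count weighs 0.0660, 0.0614 and 0.0634 CPM in replicates 1, 2 and 3. Equal counts would thus rank replicate 1 first, and nothing is read from the tally.

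ADAR, the RNA-editing enzyme, was slightly lower in the knockout. The counted transcript (ENST00000368474, chromosome 1, 154582057 to 154608186, minus strand, 15 exons) encodes the long, interferon-inducible form of the enzyme. The last 2796 of its 3681 coding bases are also the whole coding sequence of the shorter constitutive form, 75.8% of the windows, so 1 count covers both forms. ADAR had wild-type values of 304 and 319 CPM, against 249, 232 and 235 CPM without METTL18. The groups did not overlap and the step was small: 311 ± 10.7 against 239 ± 9.29 CPM, a log2 fold change of -0.38 (SE 0.05), 1.30-fold lower in the knockout.

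The partners that carry the interferon signal to DNA had unlike estimates, though that of IRF9 rests on few counts. STAT2 (ENST00000314128, chromosome 12, 56342710 to 56360074, minus strand, 24 exons) measured 34.5 and 31.8 CPM in wild-type cells, and 34.6, 33.1 and 35.3 CPM in the knockout. These values overlapped, with means of 33.2 ± 1.90 and 34.3 ± 1.13 CPM and a log2 fold change of 0.05 (SE 0.09). IRF9, the DNA-binding partner, held 12 and 5 wild-type counts, and 9, 5 and 13 in the knockout. Scaled for depth these were 2.02 and 0.915 CPM against 0.594, 0.307 and 0.825 CPM, so wild-type replicate 2 lay just above the highest knockout library. The log2 fold change was -1.36 (SE 0.51), and -0.67 without wild type replicate 1. With 5 to 13 counts in a library and no unique window, the level of IRF9 is uncertain.

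**Figure D2:**
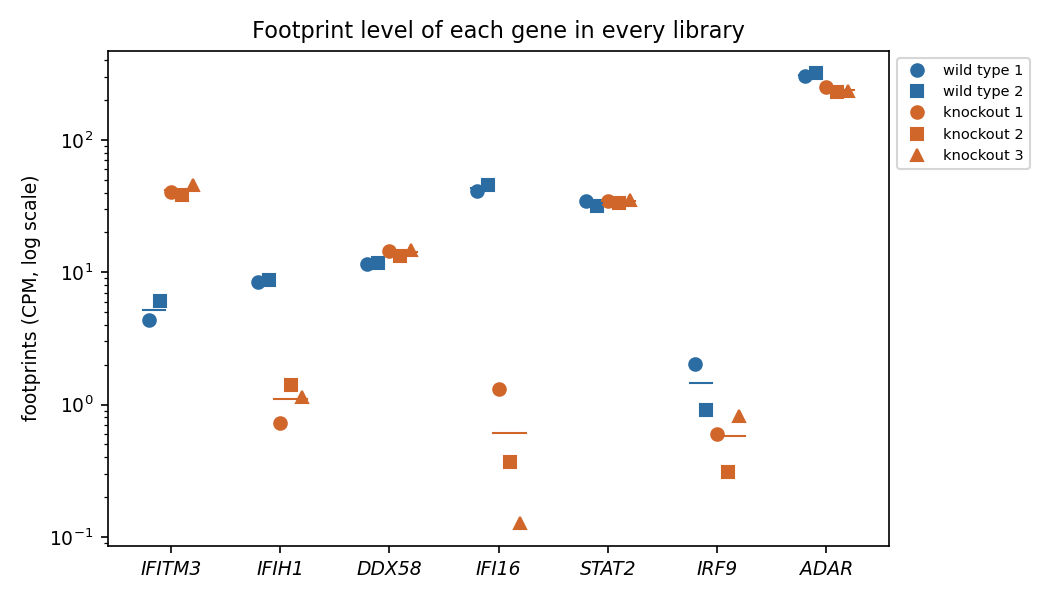
Footprints in CPM (y axis, log scale) of the 7 genes (x axis) in each of the 2 wild-type libraries (blue) and 3 knockout libraries (orange), with a line at each group mean. The group means of IFITM3 are 5.21 and 41.7 CPM, those of IFI16 are 43.1 and 0.605 CPM, and STAT2 values overlap.

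Across the 7 genes, 1 was called higher in the knockout, 4 lower and 2 not at all by the edgeR quasi-likelihood test. Of 11335 genes tested, 74.4% were called, 37.8% higher and 36.6% lower. Calls are common in this comparison, and nothing is read from the count, since the genes were chosen on it. The split depends on the scaling: with total counts only, 2982 genes were called higher and 5597 lower. The CPM of 6 of the 7 did not overlap between groups, where 83.5% of all tested genes did not. All 7 passed the filter on low counts, but IFI16 and IRF9 passed through the wild type: 1 of 3 knockout libraries reached the filter's level of 0.612 CPM for each. The call of IRF9 was lost with DESeq2, with a required fold of 1.5, without wild type replicate 1 and without METTL18 knockout replicate 2. ADAR lost its call with the required fold of 1.5. DDX58 was called higher with a non-robust fit, with no low-count filter, and without METTL18 knockout replicate 2, and STAT2 was called lower (-0.22) with total-count scaling.

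**Figure D3:**
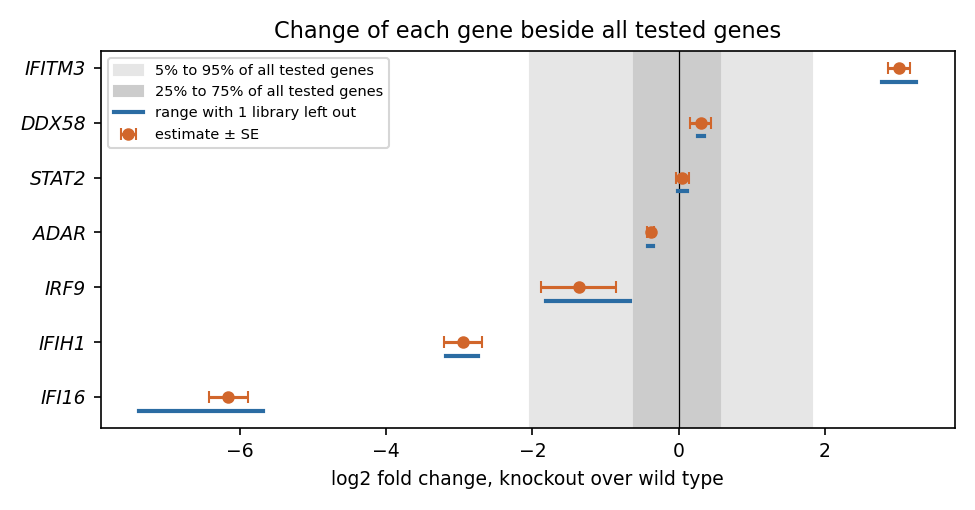
Log2 fold change of knockout over wild type (x axis) for the 7 genes (y axis), with the SE as an orange bar and the range over fits that leave out 1 library as a blue line. IFI16 (-6.16), IFIH1 (-2.95) and IFITM3 (3.01) lie outside the grey band that holds 5% to 95% of all tested genes, from -2.04 to 1.83.

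Levels were compared between genes per kilobase of coding sequence. In the wild type the order was ADAR (84.6 ± 2.91 CPM per kb), IFI16 (19.7 ± 1.44), STAT2 (13.0 ± 0.743), IFITM3 (12.9 ± 2.92), DDX58 (4.17 ± 0.0659), IFIH1 (2.79 ± 0.0833) and IRF9 (1.24 ± 0.661). STAT2 and IFITM3 did not differ beyond their spread there. In the knockout IFITM3 came first at 103.7 ± 9.18 CPM per kb, before ADAR at 64.9 ± 2.52, STAT2 at 13.4 ± 0.443 and DDX58 at 5.13 ± 0.292. IRF9 (0.487 ± 0.219), IFIH1 (0.355 ± 0.112) and IFI16 (0.276 ± 0.288) shared the low end and overlapped each other. IFI16 thus stood next to ADAR in the wild type and among the lowest in the knockout, while STAT2 and DDX58 held the middle in both groups. The places of IFITM3 and IRF9 are uncertain, since their rows may hold reads of the genes that share their windows.

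**Figure D4:**
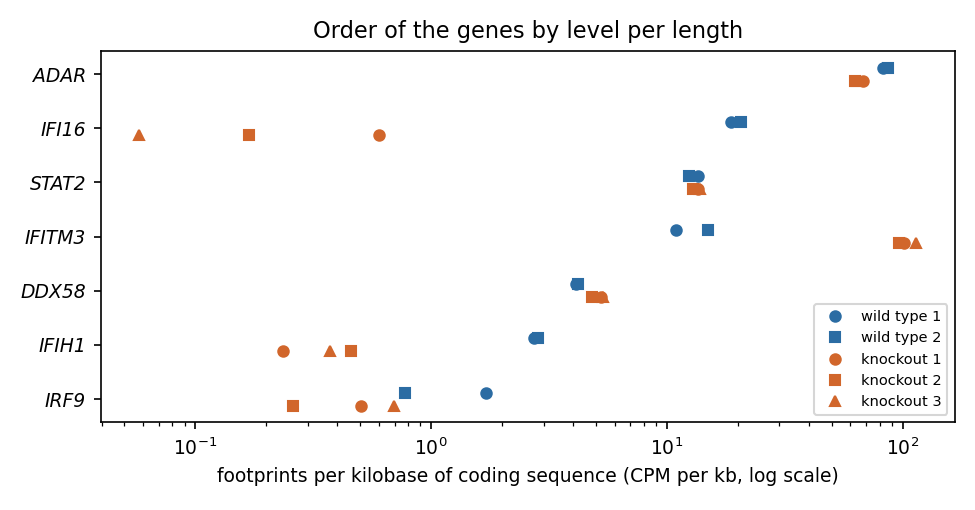
Footprints per kilobase of coding sequence in CPM per kb (x axis, log scale) for each library of the wild type (blue) and knockout (orange), with genes on the y axis ordered by their wild-type mean. ADAR is the highest blue row (84.6 CPM per kb), and IFITM3 is the highest in orange (103.7 CPM per kb). The rows of IFITM3 and IRF9 may hold reads of other genes.

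Genes with the most similar course over the 5 libraries were sought among 10714 genes whose mean log2 CPM was 0 or more, by the root mean square difference of log2 CPM centred on the wild type. Nearest to IFITM3 were TRIM71, an RNA-binding ubiquitin ligase of stem cells (0.0936 log2 units, 3.52 to 29.3 CPM), and VIM, the intermediate filament vimentin (0.117). Nearest to IFIH1 were the prostaglandin carrier SLCO2A1 (0.0992) and EFEMP1 (0.187). For IFI16 the closest were FASTKD2, a mitochondrial RNA-binding protein (0.481, 28.3 to 0.348 CPM), and BEST1, a chloride channel (0.619), which are less alike. DDX58 lay nearest to GCAT (0.0184) and NOSIP (0.0238), STAT2 to VPS33A (0.0103) and ANAPC4 (0.0150), ADAR to CNP (0.0115) and IQCB1 (0.0144), and IRF9 was close to FRMPD3 (0.218). With 5 libraries in 2 groups, this likeness is mostly likeness of the difference between the groups.

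Other genes around the RNA sensors moved both ways. Of 26 genes of RNA sensing and signalling to IRF3, all in the table, 23 were tested, and 10 rose, 7 fell and 6 did not pass. That is 73.9% called against 74.4% of all genes, with a median log2 fold change of 0.19 against 0.02 over all genes. Total-count scaling turned the majority, with 5 higher, 11 lower and a median of -0.086. RNF125, a ubiquitin ligase that marks the RNA sensors for breakdown, rose from 10.2 ± 1.59 to 42.4 ± 2.66 CPM (log2 fold change 2.06), and IRF3, the transcription factor at the end of this chain, from 15.2 ± 0.843 to 37.2 ± 0.906 CPM (1.29). TRAF2 (1.53) and TRIM25 (0.77), the ligase that activates DDX58, rose too. DDX60, an interferon-induced helicase, fell from 13.2 ± 3.07 to 2.53 ± 0.224 CPM, and TRAF3 (-1.40), the deubiquitinase CYLD (-1.06) and the kinase TBK1 (-0.59) fell as well. MAVS, the adaptor of both RNA sensors, fell from 28.2 ± 3.43 to 22.3 ± 0.855 CPM, a call lost without wild type replicate 1 (-0.21). DHX58, the remaining RIG-I-like receptor, was not tested, with 0 wild-type counts and 2 in each knockout library. MAVS, DHX58, MB21D1, TMEM173, IFNAR1, IFNAR2 and ISG15 were named after their values were seen. So were MX1, IFIT1, OAS3, ISG20, PKP3 and PSMD13, given below.

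Around the DNA sensor, 16 of 22 listed genes of DNA sensing and nucleic acid clearance had a row and 14 were tested. Of these 3 rose, 7 fell and 4 did not pass, 71.4% called against 74.4% of all genes. The median log2 fold change was -0.09, and total-count scaling gave 2 higher and 9 lower. SAMHD1, which depletes nucleotides and limits viral reverse transcription, rose from 116 ± 0.255 to 435 ± 7.16 CPM (1.90), and BANF1, a DNA-bridging protein that shields DNA from the sensor cGAS, by 0.78. LRRFIP1 rose by 0.16, a call lost in several alternatives, with wild type replicates 1 or 2 or METTL18 knockout replicate 2 left out (0.15, 0.17 and 0.13) and with a value of -0.11 under total-count scaling. PRKDC, the DNA-dependent kinase, fell from 3490 ± 48.0 to 1142 ± 25.6 CPM (-1.61). ENPP1, which breaks down the messenger made by cGAS, fell from 27.5 ± 1.49 to 4.54 ± 1.09 CPM (-2.59), and RNASEH2B (-0.66) and PQBP1 (-0.34) fell too. MB21D1, the gene of cGAS, stood at 17.3 ± 1.71 and 16.6 ± 0.993 CPM, and was called lower (-0.34) only with total-count scaling. TMEM173, the gene of the adaptor STING, held 1 and 0 wild-type counts, and 2, 5 and 5 in the knockout. The other PYHIN genes AIM2, MNDA and PYHIN1 were not analysed here.

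The receptor kinases JAK1, JAK2 and TYK2 fell. Of 25 genes of interferon receptors and JAK-STAT signalling, 24 were tested, 7 rose, 11 fell and 6 did not pass. That is 75% called against 74.4% of all genes. The median log2 fold change was -0.24, and total-count scaling gave 5 higher and 15 lower. JAK1, a kinase of all interferon receptors, fell from 106 ± 2.07 to 45.4 ± 1.97 CPM (-1.23), JAK2, which serves the interferon-gamma receptor, from 16.6 ± 1.01 to 3.56 ± 0.19 CPM (-2.22), and TYK2, the partner of JAK1 at the interferon-alpha receptor, from 23.9 ± 3.51 to 11.4 ± 0.312 CPM. PTPN11, a phosphatase, fell by 0.64 on the log2 scale. STAT3 rose (0.66), as did the receptor chain IFNGR1 (0.83) and the STAT inhibitors PIAS4 (0.73) and PIAS1 (0.49). The chains of the receptor for interferon alpha and beta did not pass: IFNAR1 stood at 20.8 ± 2.09 and 19.4 ± 1.39 CPM, and IFNAR2 at 9.33 ± 1.81 and 10.8 ± 0.759 CPM. With total-count scaling IFNAR1 was called lower (-0.37). Of 22 interferon ligands 1 had a row, IFNL1, with 1 count in 1 knockout library.

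Other interferon-induced effectors did not follow IFITM3 as a group. Of 55 listed genes 46 had a row and 27 were tested, of which 9 rose, 14 fell and 4 did not pass. That is 85.2% called against 74.4% of all genes. Of the 19 not tested, 3 had no count in any library. The median log2 fold change was -0.51, and 0.02 when a mean of at least 10 CPM was required, where 13 genes were called. Total-count scaling gave 8 higher, 16 lower and a median of -0.78. IFI30, a lysosomal thiol reductase, rose from 27.5 ± 0.618 to 118 ± 2.99 CPM (2.10), TRIM21, an antibody receptor in the cytosol, by 1.49, and PML, the scaffold of nuclear bodies, by 1.00. LGALS3BP rose by 0.43. UBE2L6, the conjugating enzyme for ISG15, fell from 32.6 ± 0.177 to 9.99 ± 0.607 CPM (-1.70), and NMI (-1.33), TRIM22 (-0.79) and BST2 (-0.73), which tethers budding virus, fell too. ISG15, the ubiquitin-like modifier, stood at 5.86 ± 0.524 and 5.87 ± 0.218 CPM. MX1 (2.21, the largest rise of the list) and IFIT1 (1.18) were called higher, and OAS3 (-1.61) and ISG20 (-2.17) lower. All of these were low rows, with MX1 at 4 counts in each wild-type library.

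**Figure D5:**
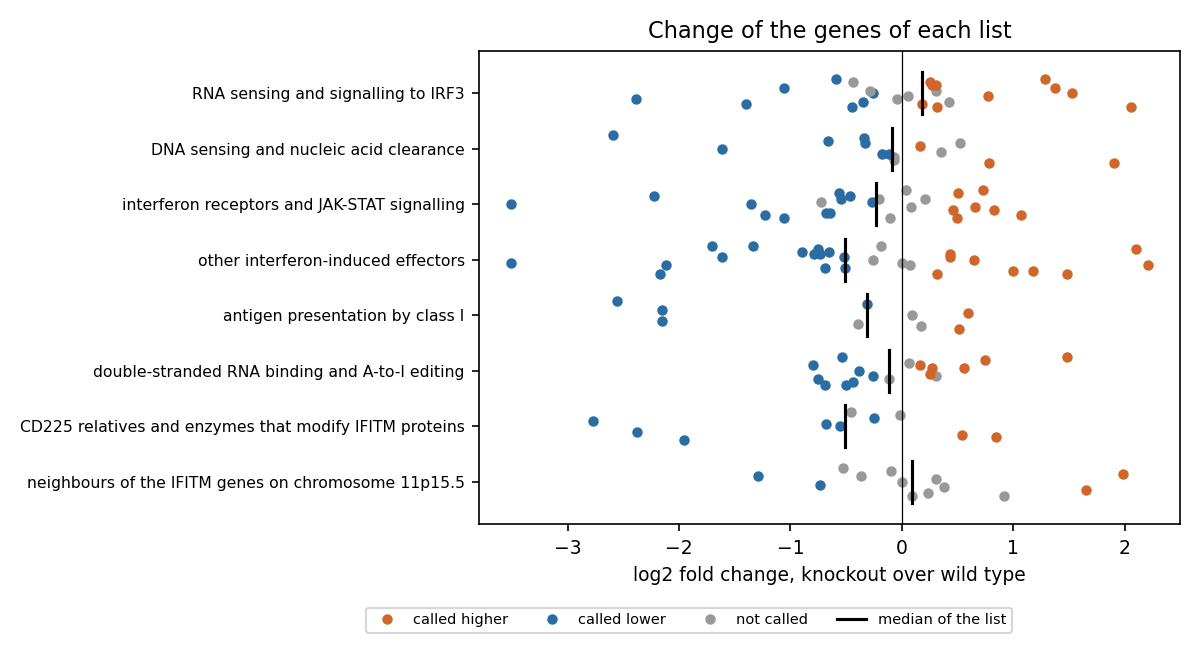
Log2 fold change of knockout over wild type (x axis) for each tested gene of 8 gene lists (y axis), coloured by call, with a black line at each median. In every list tested genes lie on both sides of 0, and the medians run from -0.51 to 0.19.

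Genes tied to ADAR and IFITM3 by function were counted next. Of 22 genes of double-stranded RNA binding and A-to-I editing, 18 had a row and 17 were tested. Of these 6 rose, 8 fell and 3 did not pass, 82.4% called against 74.4% of all genes. The median log2 fold change was -0.11, and total-count scaling gave 3 higher and 11 lower. The helicase DHX9, which unwinds such RNA, rose from 606 ± 9.83 to 1019 ± 24.1 CPM (0.75), CDKN2AIP by 0.56, and ADAT3, a subunit of the tRNA deaminase, by 1.48. The ADAT3 row was low, with 7 and 6 wild-type counts. ZFR (-0.75), PRKRA, the activator of the kinase PKR (-0.69), STRBP (-0.54) and DROSHA (-0.44) fell. Of 18 relatives of IFITM proteins and enzymes that modify them, 13 had a row and 10 were tested. Of these 2 rose, 6 fell and 2 did not pass, 80.0% called against 74.4% of all genes, with a median of -0.51. Total-count scaling gave 2 higher, 7 lower and a median of -0.78. NEDD4, the ligase that marks IFITM3 for breakdown, fell from 205 ± 5.84 to 39.6 ± 1.75 CPM (-2.37), FYN, a kinase that phosphorylates IFITM3, from 57.3 ± 1.35 to 14.8 ± 1.33 CPM (-1.95), and SETD7 by 0.68. IFITM10, a relative in the same family, fell from 4.16 ± 1.36 to 0.593 ± 0.13 CPM, with 10, 11 and 7 knockout counts. VCP (0.55) and the palmitoyltransferase ZDHHC7 (0.85) rose.

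The genes beside IFITM3 on chromosome 11p15.5 were counted to describe its surroundings. Of 18 neighbours 16 had a row and 13 were tested, of which 2 rose, 2 fell and 9 did not pass. That is 30.8% called against 74.4% of all genes tested, with a median log2 fold change of 0.09. Rows that did not pass ran from low, such as PKP3 (0.681 CPM in the wild type), to high, such as PSMD13 (237 CPM). The part of low counts in this share was not tested. RASSF7 rose from 2.11 ± 0.124 to 8.34 ± 1.95 CPM (1.99) and PHRF1 from 0.702 ± 0.0412 to 2.22 ± 0.247 CPM (1.65), while RIC8A (-0.73) and B4GALNT4 (-1.29) fell. RASSF7 and PHRF1 were low rows, with 12 and 4 counts in each wild-type library. With total-count scaling 2 rose and 5 fell, and with a mean of at least 10 CPM 1 was called. IRF7 belongs to this list and to that of RNA sensing, and did not pass, at 3.08 ± 0.553 and 3.80 ± 0.382 CPM.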

How the data were processed

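Ribosome footprints of 5 libraries were counted by the authors, who deposited raw counts in 1 table of transcripts by libraries. Per the submitters' processing notes, Bowtie was run with build hg38. Versions, counter, annotation release and the treatment of multi-mapping reads were not stated there. The row with the most counts was taken for each symbol. The test was the robust quasi-likelihood test of edgeR 4.0.16 (R 4.3.3) with TMM factors, filterByExpr (minimum count 10, total 15) and group as the only term. Benjamini-Hochberg adjustment ran over all 11335 genes tested, at 0.05. SE is the log2 fold change over the root of F. It can be smaller than the shift seen when 1 library is left out. Scripts were tested on simulated data. Depth of 4887380 to 17629199 counts sets the precision. Named genes were METTL18, the members, up to 4 called genes per list and direction with the smallest adjusted p, list genes at 0 in 1 group with at least 20 counts in the other, and the 2 nearest profiles of each member. Some genes that this rule names are not reported here. Members and lists were chosen with earlier results of these data known. Alternatives were other scaling, filters and tools (DESeq2 1.42.0, limma 3.58.1), a required fold of 1.5, a non-robust fit, a replicate block, thinned knockout libraries, and each library left out.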

Additional observations from a re-analysis of the deposited data

How the results depend on the processing

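Total-count scaling moved the median log2 fold change of all genes from 0.02 to -0.25. It leaves out the TMM factors, 1.12 in both wild-type libraries and 0.924 to 0.932 in the knockout, so log2 fold changes shift by nearly the same amount. With it IFITM3 stood at 2.74, DDX58 at 0.0280, STAT2 at -0.22 and ADAR at -0.65. LRRFIP1 (-0.11) and IFNAR2 (-0.059) turned sign, neither called. MB21D1 (-0.34) and IFNAR1 (-0.37) were called lower, and 7 neighbours of IFITM3 were called. A mean of at least 10 CPM left 3 members, 13 effectors and 1 neighbour called, and put ADAR at -0.44, with fewer genes tested. A required fold of 1.5 left 4140 of 8431 calls over all genes: 3 members, 8 genes of RNA sensing, 4 of DNA sensing, 7 of JAK-STAT signalling, 13 effectors, and 3 each for class I, double-stranded RNA and IFITM relatives. With 1 library left out, calls over all genes ran from 7391 to 8284, IFITM3 from 2.79 to 3.24, IFI16 from -7.37 to -5.69, IRF9 from -1.81 to -0.67, MB21D1 from -0.17 to 0.0407 and ISG15 from -0.091 to 0.095, where a group of 1 library is taken to vary like the other. ISG15, at -0.00073 as reported, was 0.0236 with no filter, 0.0271 with the block and 0.0186 with thinned libraries. The cause of the shifts other than those with total-count scaling was not tested, and some of the fits held fewer genes or libraries. Deviations of same-numbered libraries from their group means correlated at 0.0418 and 0.0405. With 2 wild-type libraries the deviations mirror each other, so these values cannot show whether same-numbered libraries had anything in common. The replicate block gave 8476 calls over all genes and 5 among the members. Knockout counts of IFIH1, IFI16 and IRF9, 2 to 23 a library, limit their precision.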

Other observations

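Genes that present antigen on class I molecules, many of which are interferon-induced, were also counted. Of 20 listed genes 12 had a row and 9 were tested: 2 rose, 4 fell and 3 did not pass, 66.7% called against 74.4% of all genes tested. Total-count scaling gave 2 higher and 6 lower. HLA-B fell from 54.8 ± 3.48 to 12.4 ± 1.46 CPM (log2 fold change -2.15), HLA-C from 34.5 ± 0.539 to 5.89 ± 0.804 CPM (-2.55), and ERAP1, the peptidase that trims peptides for these molecules, from 80.1 ± 3.11 to 18.0 ± 1.52 CPM (-2.15). PSME1, an activator subunit of the proteasome, fell by 0.31 on the log2 scale. The chaperones PDIA3 (0.59) and CALR (0.52) rose. HLA genes are near copies of each other, so reads may be shared between them.

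Markers of other cell types moved between the groups in part. The summed level of the 4 leukocyte markers with a row was 15.6 to 17.6 CPM in the wild type and 39.1 to 43.1 CPM in the knockout, nearly all of it CORO1A. The 3 epithelial markers summed to 142 to 151 CPM and 183 to 186 CPM, and the 4 fibroblast markers to 16.2 to 17.7 CPM and 23.9 to 26.2 CPM. KRT18 and COL1A1 made up most of these sums, and other markers differed more: CDH1, the epithelial cadherin, held 1 and 0 wild-type counts and 198, 187 and 197 knockout counts, and COL3A1, a fibrillar collagen, held 1 and 0 against 32, 33 and 26. VWF, the endothelial marker with a row, had 0 counts in the wild type and at most 1 in a knockout library. The part of these markers in the values of the interferon genes was not tested.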
